A study of Danio rerio with 6 samples.

Results

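Of 58549 Ensembl transcripts counted in whole zebrafish embryos at 36 h post-fertilization (hpf), 111 (0.190%) were strongly dependent on p63, in the sense that every *tp63* mutant sample had at least 4 times less of them than every WT sample. A transcript was taken when its lowest level in the 3 WT samples was at least 1 CPM (the count divided by the sum of counts of that sample and multiplied by 1000000) and at least 4 times its highest level in the 3 *tp63* mutant samples. The members were thus selected on the CPM values of these same 6 samples, so their fold changes and calls are given as a description. Among the 27118 transcripts that reached the WT limit and could have qualified, the 111 were 0.409%.

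RNA-seq was performed on 3 *tp63* -/- mutant and 3 WT replicates at 36 hpf, each from whole embryos pooled for RNA extraction. The mutant embryos carry on both chromosomes the same small CRISPR/Cas9 deletion, kept as 1 stable allele, which shifts the reading frame of *tp63* in an exon common to its isoforms so that no p63 is made. The WT strain is AB/Tübingen, and all embryos were raised at 28 °C in E3 medium. DNA taken in parallel was used to genotype the pools. The sum of counts per sample ran from 77925263 to 81976521 in mutants and from 77133790 to 80503899 in WT.

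p63 binds DNA through a domain that it shares with its relatives p53 and p73. In vertebrate embryos it is made in the basal layer of the epidermis, where it keeps progenitors proliferating and activates genes for keratins, adhesion to the basement membrane and cell junctions. It is also needed for the apical ectodermal ridge, the strip of ectoderm that drives the outgrowth of fins and limbs. The counts come from whole embryos, so a lower level of a transcript can reflect fewer cells of a type or less RNA per cell, and these cannot be told apart.

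The files identify transcripts by Ensembl identifiers without gene names, and none of the 111 identifiers has a symbol in the reference tables used here. Transcripts of *tp63* itself, and markers of epidermis, ionocytes, fin fold, muscle, neural tissue, notochord, blood, pigment cells and yolk, could therefore not be looked up, and the mutant and WT labels were not checked against the targeted gene. The members are described below by their rank from 1 to 111 in mean WT CPM, and identifiers are given for a pair of them. A CPM is not corrected for transcript length, so this rank orders counts and not amounts of RNA molecules.

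The counting options are not known. The sum of counts in every sample was larger than the approximate number of reads that the paper gives. Some reads thus appear to have been counted on several overlapping transcripts, and a CPM here is a share of counts and not of reads. Some members shared their counts. A set of 13 members (11.7%) had exactly the same 6 counts as another member, against 4.78% of the 27118 transcripts that reached the WT limit, and the 111 members held 104 distinct sets of counts. When counts within 3 reads or 2% of each other in all 6 samples were also put together, there were 97 groups, 86 of them with a single member and the largest with 3. No transcript outside the 111 was such a near copy of a member. A member placed alone can still share reads with another, since the limit had to hold in all 6 samples. Ranks 8 and 9, for example, were placed apart, with 77, 61 and 94 against 75, 61 and 91 counts in mutants. Members that share reads are not independent observations.

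Most members had few counts in mutants and modest counts in WT. Their mean mutant CPM ran from 0 to 77.9 with a median of 0.211, while the 27118 transcripts had a median of 9.49 in mutants. Their mean WT CPM ran from 1.19 to 520 with a median of 5.30, against a median of 8.72 over the 27118 transcripts. In WT, 27 members had a mean below 2 CPM, 26 had 2 to 5, 19 had 5 to 10, 33 had 10 to 100 and 6 had more than 100. The median count of a member was 18 in mutant samples and 420 in WT samples, and no member had fewer than 80 counts in any WT sample.

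**Figure D1:**
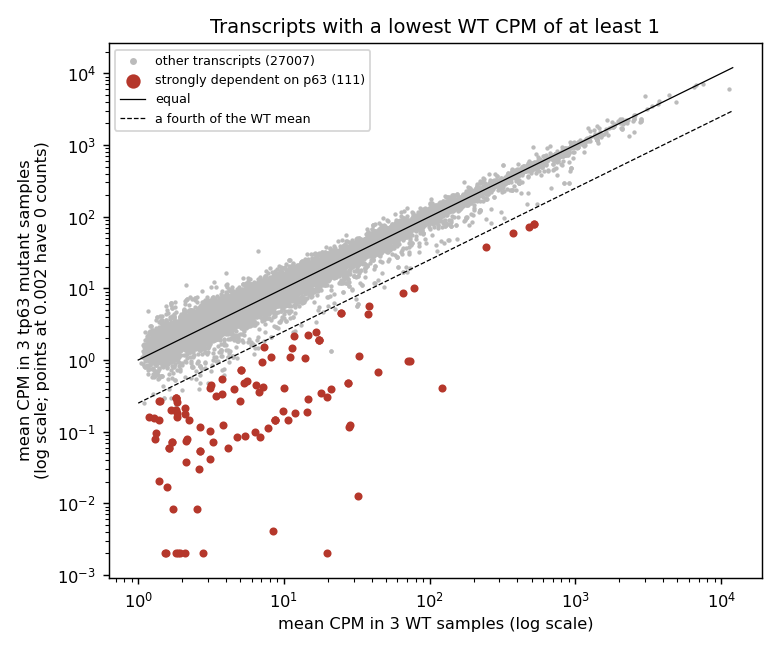
Mean CPM in the 3 *tp63* mutant samples (vertical, log scale) against mean CPM in the 3 WT samples (horizontal, log scale) for the 27118 transcripts with a lowest WT CPM of at least 1. The 111 members (red) lie below the dashed line at a fold of 4, while the other transcripts (grey) mostly follow the line of equal levels, and points at the bottom edge had 0 counts in all 3 mutant samples.

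The members were spread over the whole range from undetected to a clear remainder. The mean mutant CPM was between 0% and 20.9% of the mean WT CPM, with a median of 4.40%, while over the 27118 transcripts the median was 109%. The shares left were uneven, over ranges of unequal width that were not set in advance. The rule itself caps the share that can be left. In 41 members, which fell into 38 groups of near-identical counts, less than 2% of the WT level was left, and another 41 members in 35 such groups had 8 to 16% left. The 23 members between these ranges, from 2 to 8%, fell into 20 groups. None had 16 to 18% left, and 6 members had more. The median share left was 15.01% in the 6 members above 100 CPM in WT, 5 of which are the ranks 1 to 5 described below, and between 3.38% and 7.33% in the other classes of WT level.

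**Figure D2:**
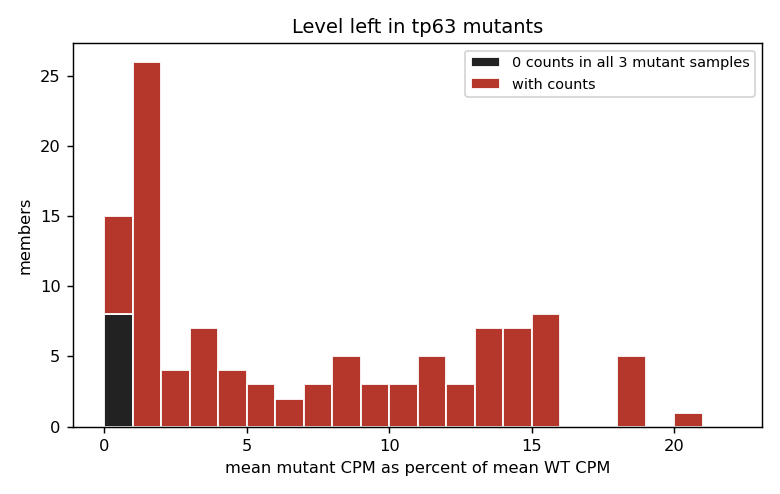
Number of members (vertical) by mean *tp63* mutant CPM as a percent of mean WT CPM (horizontal, steps of 1 percentage point). The bar from 1 to 2% holds 26 members, the bar from 0 to 1% holds 15, of which 8 (black) had 0 counts in all 3 mutant samples, and 41 members lie at 8 to 16%.

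In all, 8 members had 0 counts in all 3 mutant samples. The one with the highest WT level was ENSDART00000153830.1, at rank 23, with 0, 0 and 0 CPM in mutant replicates 1, 2 and 3, against 19.0, 22.1 and 18.5 CPM in WT replicates 1, 2 and 3. These WT values stand for 1482, 1779 and 1429 counts, and they varied 1.19-fold between replicates. A count of 0 allows up to 3 counts in each library, or 0.0366 to 0.0385 CPM in the mutants, so the transcript was at least 525-fold lower in mutants. The other members without mutant counts had mean WT levels from 1.53 to 2.78 CPM, and for the whole set of 8 the same limit gave bounds from 40.4-fold to 525-fold. These limits cover counting error only.

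Another 4 members had 1 to 3 counts over the 3 mutant libraries together. The largest of them in WT, at rank 15, had 0, 0.0122 and 0.0257 CPM in mutant replicates 1, 2 and 3, against 51.6, 13.0 and 31.8 CPM in WT replicates 1, 2 and 3. Its 3 mutant counts against 7518 WT counts were 0.0395% of the WT level (95% exact binomial interval 0.00815 to 0.116%, for counting error only). The member at rank 44 had 0, 0.0122 and 0 CPM in mutants and 13.7, 3.44 and 8.23 CPM in WT. Its share left was 0.0501% (95% exact binomial interval 0.00127 to 0.279%, for counting error only). The WT counts of both varied nearly 4-fold between replicates, which these intervals leave out. The WT values of these 2 members moved together, both highest in replicate 1 and lowest in replicate 2, and the ratio of rank 15 to rank 44 was 3.77, 3.77 and 3.87 in the 3 WT samples. The counts of the other 2, at ranks 77 and 95, were 2 each in mutants, against 604 and 407 in WT.

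Several members with high WT counts were reduced to a small remainder. The member at rank 6 had 0.564, 0.244 and 0.411 CPM in mutant replicates 1, 2 and 3, against 126, 137 and 103 CPM in WT replicates 1, 2 and 3, so that 0.334% was left. The members at ranks 16 and 17 had 28 or 29 counts over the 3 mutant libraries, with 0.122 ± 0.0107 and 0.118 ± 0.0133 CPM in mutants (SD, n = 3), against 28.3 ± 4.16 and 27.9 ± 6.77 CPM in WT (SD, n = 3). The mutant replicates of both overlapped closely, between 8 and 10 counts each. At rank 8, 0.988, 0.744 and 1.21 CPM were counted in mutants, against 71.3, 80.2 and 69.4 CPM in WT, and 1.33% was left.

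Other members kept a clear level. The highest counts in WT belonged to ENSDART00000140696.2, at rank 1, with 86.4, 55.4 and 91.8 CPM in mutant replicates 1, 2 and 3, against 543, 493 and 523 CPM in WT replicates 1, 2 and 3. As the rule requires, the mutant and WT samples did not overlap, and 14.98% of the WT level was left. Mutant replicate 2 was the lowest of the mutants, while the WT replicates lay within 1.1-fold of each other. The member at rank 2 differed from it by at most 2 counts in any sample. The members at ranks 3, 4 and 5 stood in a narrow ratio to rank 1 in all 6 samples, from 0.922 to 0.938 for rank 3, from 0.708 to 0.764 for rank 4 and from 0.440 to 0.497 for rank 5. All 5 had 14.98 to 15.61% left. At rank 47, the member with the most left, the mutants had 1.76, 1.29 and 1.55 CPM, against 7.16, 7.78 and 7.05 CPM in WT, or 20.9%.

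**Figure D3:**
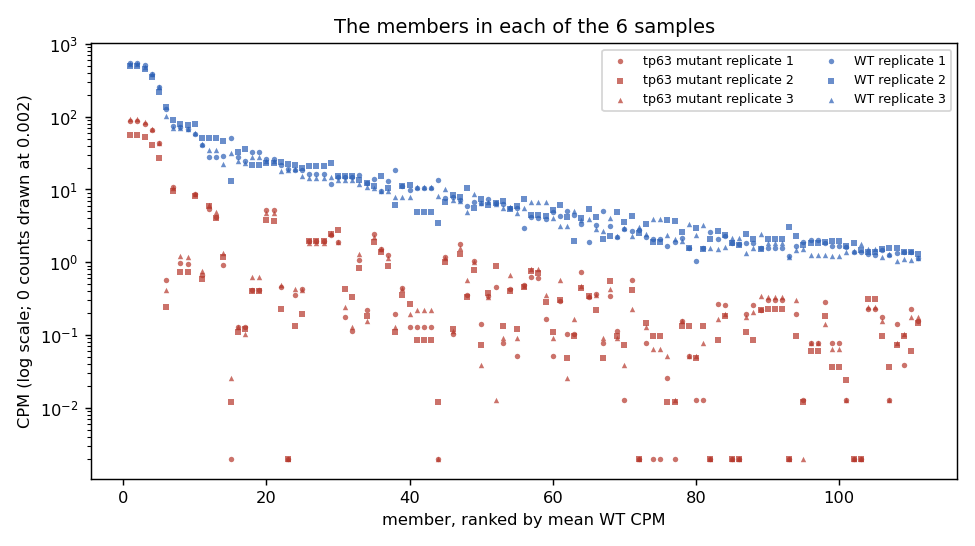
CPM of each of the 111 members (log scale) in the 3 *tp63* mutant samples (red) and the 3 WT samples (blue), ordered along the horizontal axis by mean WT CPM. Marker shape gives the replicate, and values with 0 counts are drawn at the bottom. The red points of ranks 1 to 5 form a separate step at 26.9 to 91.8 CPM, and those of the other members are scattered over several orders of magnitude.

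Summed over all members, the mutants had 442, 303 and 463 CPM, against 3510, 3400 and 3364 CPM in WT. The mean was 403 ± 86.6 CPM in mutants and 3425 ± 76.1 CPM in WT (SD, n = 3 each), so that 11.8% of the summed level was left. These sums may hold the same reads more than once, since ranks 1 and 2 differed by at most 2 counts in any sample and both were added. The 5 members at ranks 1 to 5 supplied 325 ± 82.01 CPM in mutants and 2140 ± 116 CPM in WT (SD, n = 3 each), with 15.2% left. Without them the sum was 77.8 ± 4.61 CPM in mutants and 1285 ± 102 CPM in WT (SD, n = 3 each), with 6.06% left. A sum that counted ranks 1 to 5 only once was not made. Its share left would lie between 6.06% and 11.8%, since these 5 would weigh less. The low sum of mutant replicate 2 came with these 5 members, which had 231 CPM there against 362 and 381 CPM in the other mutants. The remaining 106 members had 79.5, 72.6 and 81.3 CPM in the 3 mutants, where the spread was smaller.

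**Figure D4:**
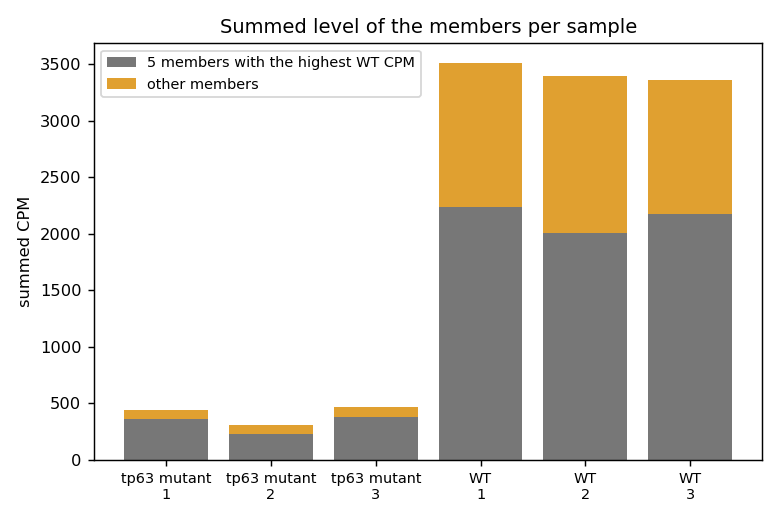
Summed CPM of the 111 members in each *tp63* mutant and WT sample, stacked as the 5 members with the highest WT CPM (grey) and the other 106 (orange). The mutant bars reach 303 to 463 CPM and the WT bars 3364 to 3510 CPM, and the 5 members make up 76.1 to 82.4% of the mutant sums and 59.1 to 64.7% of the WT sums. Members with nearly the same counts, such as ranks 1 and 2, are each added, so reads may be held more than once.

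Members with nearly the same counts in WT could still differ in their mutant counts. The member at rank 30 had 150, 226 and 150 counts in mutant replicates 1, 2 and 3, against 1158, 1239 and 1043 counts in WT replicates 1, 2 and 3. Rank 31 had 14, 35 and 19 counts in mutants, against 1158, 1236 and 1042 counts in WT. The pair differed by no more than 3 counts in any WT sample. Mutant counts were 15.1% of the WT level at rank 30 and 1.95% at rank 31. Rank 32, with 9, 27 and 10 counts in mutants against 1146, 1238 and 1034 in WT, had 1.32%. Rank 30 thus had many more counts than rank 31 in every mutant sample, but at most 3 more in WT. If the pair shares reads, most of the 15.1% would be counts nearly absent from WT and not a remainder, which was not tested. The mutant values of ranks 30, 31 and 32 were highest in replicate 2. What separates the transcript models at these identifiers was not analysed here.

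The WT replicates of the members differed among themselves, and since the rule uses the lowest WT sample, these values are a description. The median SD of log2 CPM over the 3 WT samples was 0.27 for the members and 0.25 for the 27118 transcripts. Over 2 WT samples, with the rule applied to the samples kept, the value for the members was 0.16 without WT replicate 3, 0.18 without WT replicate 2 and 0.28 without WT replicate 1. The highest WT sample was more than 2 times the lowest in 20 members (18.02%), against 15.1% of the 27118 transcripts. Ranks 15 and 44 had the widest ranges, 3.98-fold and 3.97-fold. At rank 38, the mutants had 0.192, 0.110 and 0.128 CPM, against 18.3, 6.16 and 7.78 CPM in WT, with WT replicate 1 alone being high.

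Which WT replicate was highest depended on the scaling of the counts. In CPM, WT replicate 2 was the highest in 66 of the 111 members (59.5%) and in 57.7% of the 27118 transcripts. After scaling with the TMM factors of edgeR, which ran from 0.978 to 1.20 in mutants and from 0.833 to 1.08 in WT, it was WT replicate 1 that was highest in 69 members (62.2%) and in 47.0% of all. In the mutants, replicate 2 was the lowest in 57 of the 103 members with counts (55.3%) in CPM, against 29.2% of all, and in 70 of them (68.0%) with TMM, against 51.0% of all. The TMM scaling shifted the median log2 difference between mutants and WT of the 27118 transcripts (with 0.5 CPM added) by -0.16, from 0.12 in CPM to -0.05. With it, 116 transcripts met the rule, including 108 of the 111.

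The mutants were not always alike at low counts. At rank 52, the mutants had 36, 72 and 1 counts, against 504, 526 and 487 counts in WT, the narrowest WT range among the members (1.03-fold). This gave 0.462, 0.878 and 0.0128 CPM in mutants, against 6.46, 6.53 and 6.31 CPM in WT. Mutant replicate 3 stood far below the others. Among the 72 members with at least 30 counts over the 3 mutants, the median SD of log2 CPM was 0.34 in mutants and 0.23 in WT, and lower counts carry more counting error.

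Differential expression was tested across all transcripts with the quasi-likelihood method of edgeR, and p-values were adjusted over all of them by Benjamini-Hochberg with a threshold of 0.05. Of 41974 transcripts tested, 513 (1.22%) were lower and 114 (0.272%) were higher in mutants. Without single samples the number of lower transcripts ran from 205, without WT replicate 3, to 560, and the number of higher ones from 19, without WT replicate 3 or without mutant replicate 3, to 179. DESeq2 called 1038 lower and 402 higher, and edgeR with a block for the replicate number called 1235 lower and 879 higher. All 111 members were tested and all were among the 513, of which they made up 21.6%. The same contrast chose them, so this count is no separate result. Every mutant CPM was below every WT CPM in 1491 of the 27118 transcripts with a lowest WT CPM of at least 1 (5.5%), the members included, where the rule requires it. With 3 samples of each genotype such an order also arises in some transcripts without any genotype difference, and that share was not estimated here. The 5.5% can therefore not be read as a share of transcripts that differ by genotype. The median log2 fold change of the members was -4.65, with a range from -13.71 to -2.42, and the median of all tested transcripts was 0.01. The lowest value belongs to ENSDART00000153830.1, which has no mutant counts, and it depends on the small prior count of the fit. With the 8 members without mutant counts set to the bounds given above, the lowest value was -11.40. It belongs to rank 15, which was not set to a bound and rests on 3 counts over the mutants. The median of -4.65 could not change, since all 8 stay below it. When single samples were left out, 109 members were called lower in each of the 6 fits. Rank 52 was no longer called without mutant replicate 1 (edgeR adjusted p = 0.0798) or without WT replicate 3 (edgeR adjusted p = 0.151). Rank 110, with 0.231, 0.0610 and 0.180 CPM in mutants against 1.40, 1.40 and 1.08 CPM in WT, was not called without mutant replicate 3 or WT replicate 3 (edgeR adjusted p of 0.0737 and 0.0736).

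The limits of the rule cut through a continuous range. Just inside the fold limit, the lowest WT CPM was 4.004, 4.013 and 4.043 times the highest mutant CPM, and just outside it was 3.99, 3.86 and 3.77 times. The member closest to the limit had a mean of 0.264 CPM in mutants and 1.39 CPM in WT, and the first transcript outside had 0.252 CPM in mutants and 1.09 CPM in WT. For the WT limit, the lowest WT CPM was 1.04 in the member just inside and 0.985 in the transcript just outside. At a fold limit of 10, 60 transcripts remained, and at 50 there were 21, compared with 206 at a fold limit of 2.

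The rule was met by 111 of 27118 transcripts (0.409%) in the direction of the members, against 14 of 29141 (0.0480%) when it was turned round, with the lowest mutant CPM at least 1 and 4 times the highest WT CPM. At a fold limit of 10, 60 transcripts were lower and 3 higher in mutants. At a fold limit of 1.5, 348 were lower and 237 higher in CPM, and 494 lower and 129 higher with TMM, so the balance at small folds depended on the scaling.

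**Figure D5:**
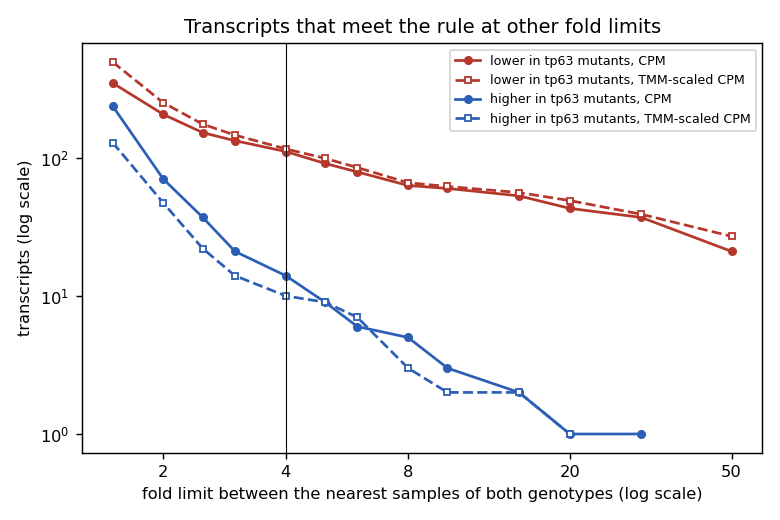
Number of transcripts (vertical, log scale) whose samples of both genotypes are separated by at least the given fold limit (horizontal, log scale), for transcripts lower (red) and higher (blue) in *tp63* mutants, in CPM (filled) and in TMM-scaled CPM (open). The genotype with the higher level also had to have a lowest value of at least 1 in the scaling used. The vertical line marks the limit of 4, where 111 transcripts are lower and 14 higher in CPM. At a limit of 20 there are 43 lower and 1 higher in CPM, and 49 lower and 1 higher in TMM-scaled CPM, and a curve ends where no transcript is left.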

How the data were processed

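RNA-seq was performed on 3 *tp63* mutant and 3 WT pools of whole embryos. The authors aligned single-end reads to GRCz10 with STAR and counted them per Ensembl transcript with htseq-count, and deposited them as raw counts. The counting options and the annotation version are not given in the sources used here. The summary lines of htseq-count were left out, and reads assigned to no feature were 7.43 to 8.72% of the sum of counts and ambiguous ones 24.4 to 24.8%. Genotype and replicate number come from the sample titles. Nothing in the labels says that the replicates came from separate clutches, and the paper calls them biological replicates. Between samples of one genotype, chi-square per degree of freedom was at least 26.8, so none was a copy of another.

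Counts were tested in R 4.3.3 with edgeR 4.0.16 (filterByExpr, TMM, quasi-likelihood test, genotype only, Benjamini-Hochberg adjustment over all tested transcripts). The members and the alternatives were chosen with earlier results of these data known. Alternatives were DESeq2 1.42.0, RLE factors, other filters, a block for the replicate number, fits without each sample in turn, and identical counts used once. The edgeR fit was tested on simulated data for 41386 transcripts of this comparison. It found 19 of 100 changed by 1 and 76 of 100 changed by 2 on the log2 scale. There were 12 false calls among 107, a larger share than the threshold of 0.05. The simulated counts were drawn independently for each transcript and sample, without TMM factors, shared reads or differences shared by same-numbered samples. The rule for identifiers was the member with the highest mean WT CPM, and the one with the highest mean WT CPM among those with 0 mutant counts. Lists of epidermal genes and cell type markers, set by symbol, and the targeted gene were not analysed here. Tables were made in Python 3.11.15.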

Additional observations from a re-analysis of the deposited data

How the results depend on the processing

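The number of members followed the limits of the rule, with 206 transcripts at a fold limit of 2, 63 at 8, and 71 or 49 when the lowest WT CPM had to reach 2 or 5. Leaving out single samples, which loosens the rule, gave 112 to 127. The members with 0 mutant counts numbered 8 or 9 under every scaling and in each set without 1 sample. A count of 0 stays 0 under any scaling, where only the WT limit can change this number, and leaving out a sample cannot lower it. The share of the summed level left was 10.5 to 13.2% in all settings that added each of ranks 1 to 5, and 6.06% without these 5, chosen after seeing the data. Among all transcripts, those called lower numbered 513 with edgeR, 1038 with DESeq2, 296 with at least 10 counts in every sample. They numbered 205 to 560 without single samples, the lowest without WT replicate 3 (205), and also 232 without *tp63* mutant replicate 3, 285 without mutant replicate 2 and 317 without mutant replicate 1. Higher in mutants were 114 transcripts with edgeR, 402 with DESeq2, 59 with that filter, and 19 to 179 without single samples. The filter of at least 10 counts in every sample tested 60 of the 111 members and called all 60, with a median log2 fold change of -3.21, since it removes the members with few mutant counts. DESeq2, RLE factors and no filter called all 111, beside 1038 of 53448, 515 of 41974 and 628 of 53448 transcripts called lower. With identical counts tested once, all 104 members left were called, beside 481 of 40836 transcripts. The same contrast chose the members, so none of these counts of members is a separate result.

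With the replicate block, 1235 of 41974 transcripts were lower and 879 higher in mutants. All 111 members, chosen by the same contrast, were called lower, and their median log2 fold change was -4.67. The deviations of same-numbered mutant and WT samples correlated with 0.588, 0.509 and -0.0746 across transcripts for replicates 1, 2 and 3. Mutant replicate 2 with WT replicate 1 gave -0.583, and mutant replicate 1 with WT replicate 2 gave -0.527. In all, 4 of the 6 samples correlated best with their own number. The labels do not say that equal numbers belong together, and the main fit used genotype only. That fit leaves out any difference shared by same-numbered samples, and its numbers of calls depend on this choice. With same-numbered pairs in the rule, 121 transcripts qualified. This version is looser than the rule, so no member could drop out of it. Depth limits what can be said of members with few mutant counts, where 3 counts in a library are 0.0366 to 0.0385 CPM.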
